A study of Saccharomyces cerevisiae with 32 samples.

Results

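The third PDZ domain (PDZ3) of PSD95, a scaffold protein of excitatory synapses, was mutated together with its peptide ligand from the protein CRIPT, and growth of yeast was scored for each variant. Described here are the variants with a change at 1 of PDZ3 residues 1 to 50 and at 0 or 1 of the 8 CRIPT residues. They were found by comparing every listed amino acid sequence with the wild-type sequence, and they numbered 109222 of the 251627 sequences of the PDZ3-CRIPT table. Among them were 870 single substitutions in PDZ3, 104260 pairs of 1 PDZ3 and 1 CRIPT substitution, 24 single stop codons and 4068 pairs that held a stop codon. The library was made in 2 blocks (b1 and b2), each with 3 output samples grown for about 5 generations in 200 µg/mL methotrexate and 3 input samples grown for 5 generations without the drug. All were cultures of the yeast strain BY4741 carrying the library, and the deposited table gives only 1 merged score and 1 error per sequence, not a value per sample. A score near 0 means growth like wild type and a negative score means slower growth in methotrexate.

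PDZ domains are small folds of strands and helices that bind the last residues of a partner protein. The ligand lies as an extra strand along strand beta2, and its terminal carboxylate is held by the GLGF motif, the loop that leads into that strand. The ligand's last residue fills a hydrophobic pocket, and the residue at position 6, T6, is read by helix alpha2. In the protein complementation assay the binding partners carry complementary parts of a drug-resistant dihydrofolate reductase, so growth follows the amount of complex, which depends on the abundance of folded PDZ3 as well as on affinity. These contributions cannot be told apart in the scores.

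Residue 1 of the listed PDZ3 corresponds to residue 303 of PSD95 and residue 50 to residue 352. The stretch holds an N-terminal tail (residues 1 to 9), strand beta1 (10 to 15), a short loop (16 to 19), the GLGF motif (20 to 23, PSD95 residues 322 to 325), strand beta2 (24 to 26), the loop between strands beta2 and beta3 (27 to 33), strand beta3 (34 to 39) and the loop before helix alpha1 (40 to 43). These limits follow the known fold and are approximate, since no structure was read. CRIPT residues are written K1, N2, Y3, K4, Q5, T6, S7 and V8, with V8 at the C-terminus (ligand position 0).

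The wild-type sequence scored -0.000512 ± 0.00383. Here and for every single variant, ± is the authors' error, whose kind is not stated. The 24 PDZ3 stop codons with wild-type CRIPT had a median score of -0.754, with a range of -0.940 to -0.660, and all 24 were lower than wild type. Residues 44 to 50 were sparse, with 8 to 42 variants per residue (163 in all) and a median error of 0.117, against 1852 to 3004 variants per residue and a median error of 0.0525 at residues 1 to 43. The depth behind each value is unknown. The table lists residues 51 to 100 and residues 1 to 50 one after the other, and which labelled block each came from was not assigned. The wild-type row lies in the listing for residues 51 to 100. Over the 154 CRIPT single variants scored in both listings, the score in the listing for residues 1 to 50 differed by a median of -0.0158 and was lower for 116 of them.

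Each variant was compared with wild type by a two-sided normal test on the difference divided by its error, with Benjamini-Hochberg adjustment over all 251626 variants of the table. At an adjusted p under 0.05, 86906 of the 109222 variants (79.6%) scored lower and 1203 (1.10%) higher, against 77% and 1.61% of the whole table. Of the 870 single substitutions, 396 (45.5%) were lower, 81 (9.31%) higher and 393 neither, where over all 1817 single substitutions of PDZ3 41.4% were lower and 15.9% higher. The mean effect of a single substitution, its score minus the wild-type score, was -0.127 ± 0.00398 (propagated error, n = 870). The median effect was -0.0367, so the mean was pulled down by a minority of strong losses. With the wild-type value moved by the offset between listings, 361 single substitutions were lower and 137 higher.

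Effects were small in the N-terminal tail and large around the GLGF motif and strands beta2 and beta3. In the N-terminal tail 141 of 169 substitutions passed the test in neither direction, 21 were lower and 7 higher, and the mean effect was -0.00916 ± 0.00434 (n = 169). P9 had no call among its 19 substitutions, which lay between -0.0316 and 0.0260. In strand beta1 the residues alternated. R10 was lower for 18 of 19 substitutions and was higher only as lysine, with R10K at 0.0342 ± 0.0141 and R10P lowest at -0.421 ± 0.0177. I14 was lower for 13 of 19, with I14D at -0.630 ± 0.0168 and the aliphatic I14L at 0.00238 ± 0.0301, whereas their neighbours R11, V13 and H15 had means between 0.00507 and 0.0127. I12 was lower for 6 of 18 substitutions.

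In the loop before the GLGF motif, R16 stood out with 18 of 19 substitutions lower and a mean effect of -0.192 ± 0.00507. Acidic replacements of R16 averaged -0.267 ± 0.0101, R16K scored -0.0474 ± 0.0129 and R16P, the highest and the only substitution not called, -0.0278 ± 0.0137. The loop's other residues were milder, with means of -0.0480 at G17, -0.00466 at S18 and 0.0432 at T19, where 7 of 18 substitutions were higher and none lower.

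The GLGF motif, which holds the ligand's carboxylate, split in an unequal way. Its first glycine, G20, had the highest mean of the 47 residues with at least 10 substitutions, 0.0721 ± 0.00765, and 15 of its 19 substitutions were higher than wild type. G20M scored 0.165 ± 0.0163, G20L 0.155 ± 0.0209 and G20K 0.151 ± 0.0163, while G20I was the only lower one at -0.0456 ± 0.0184 and the acidic G20D and G20E passed in neither direction. The other motif residues were among the most sensitive, with mean effects of -0.387 ± 0.00659 at L21, -0.459 ± 0.00677 at G22 and -0.355 ± 0.00691 at F23. All 19 substitutions of G22 were lower, from G22C at -0.103 ± 0.0269 to G22I at -0.784 ± 0.03001, and the branched G22I and G22V lay within the range of the stop codons. At F23 and L21 nearly all replacements were lower, and the losses ranged widely. F23M scored -0.00750 ± 0.0121 and F23C 0.0121 ± 0.0133, and passed in neither direction, against F23D at -0.833 ± 0.0255 and F23R at -0.832 ± 0.0316. In between, F23L, F23A, F23V, F23Y and F23W were lower at -0.184 to -0.0667, and F23P scored -0.740 ± 0.0491. L21M scored 0.00997 ± 0.02503 and L21W -0.00649 ± 0.0145, against L21E at -0.819 ± 0.0252. L21I, L21A and L21V were lower at -0.379 to -0.139, L21F and L21Y at -0.106 and -0.0559, and L21G (-0.674 ± 0.0251) and L21P (-0.664 ± 0.0422) lost nearly as much as the basic L21K (-0.696 ± 0.0182).

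Strand beta2, which pairs with the ligand, had the lowest mean effect of the segments with full coverage, -0.333 ± 0.00551 (n = 57), with 44 substitutions lower and 8 higher. I25 averaged -0.5997 ± 0.00934 and all of its 19 substitutions were lower. The least affected was I25F at -0.106 ± 0.0201, followed by the aliphatic I25V, I25M and I25L between -0.302 and -0.209. V26 averaged -0.346 ± 0.00809, but V26I was higher than wild type at 0.0622 ± 0.0128, and V26P at -0.833 ± 0.0409 was the lowest single substitution of all 870. N24, the first residue of the strand, was mixed, with 8 substitutions lower, 7 higher and 4 neither. N24V, N24T, N24I and N24M scored between 0.0656 and 0.0813, whereas N24P scored -0.542 ± 0.0201, N24E -0.386 ± 0.0149 and N24D -0.129 ± 0.0134.

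The loop between strands beta2 and beta3 opened with the lowest residue of all. G27 averaged -0.620 ± 0.00948 with 19 of 19 substitutions lower, and G27S, at -0.149 ± 0.0181, and G27W, at -0.421 ± 0.103, were its highest. G28 was also lower for 19 of 19 and averaged -0.3999 ± 0.00580, but G28P scored -0.0445 ± 0.0173. E29 averaged -0.174 ± 0.00811. Its acidic replacement E29D stayed at 0.0144 ± 0.0215, the basic E29K and E29R scored -0.314 ± 0.0312 and -0.319 ± 0.0128, and E29P -0.616 ± 0.0396. Farther along the loop the effects turned upward. E32 averaged 0.0423 ± 0.00578 with 8 of 18 higher and 1 lower, and G33 averaged 0.0335 ± 0.00650 with 10 of 18 higher and 2 lower. G33E, at 0.175 ± 0.0206, was the second highest single substitution, and E32M and E32P scored 0.135 ± 0.0320 and 0.125 ± 0.0106.

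In strand beta3 81 of 113 substitutions were lower and 6 higher, with a mean effect of -0.221 ± 0.00467. I34 was lower for all 19 substitutions, down to I34Y at -0.648 ± 0.0351, with I34V closest to wild type at -0.0484 ± 0.0133. I36 was lower with every aromatic, acidic and basic residue but with none of the 4 aliphatic ones, with I36C at 0.0611 ± 0.0184, I36S at 0.0353 ± 0.009999 and I36V at 0.0305 ± 0.0134 above wild type, I36L at -0.0251 ± 0.0246 in neither direction, I36G lower at -0.117 ± 0.0296 and I36E at -0.791 ± 0.0411 near the stop level. S37 averaged -0.0955 ± 0.00588 with 14 of 19 lower and S37P higher at 0.0414 ± 0.0138. I39 averaged -0.235 ± 0.00769, but I39L scored 0.173 ± 0.0178, behind only T19R and G33E among the single substitutions. In the loop before helix alpha1, means lay between -0.115 at G43 and 0.00383 at A41. At the sparse residues 44 to 50, 22 of 61 substitutions were lower and none higher, with a mean effect of -0.127 ± 0.0102 and a median error of 0.0556.

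**Figure D1:**
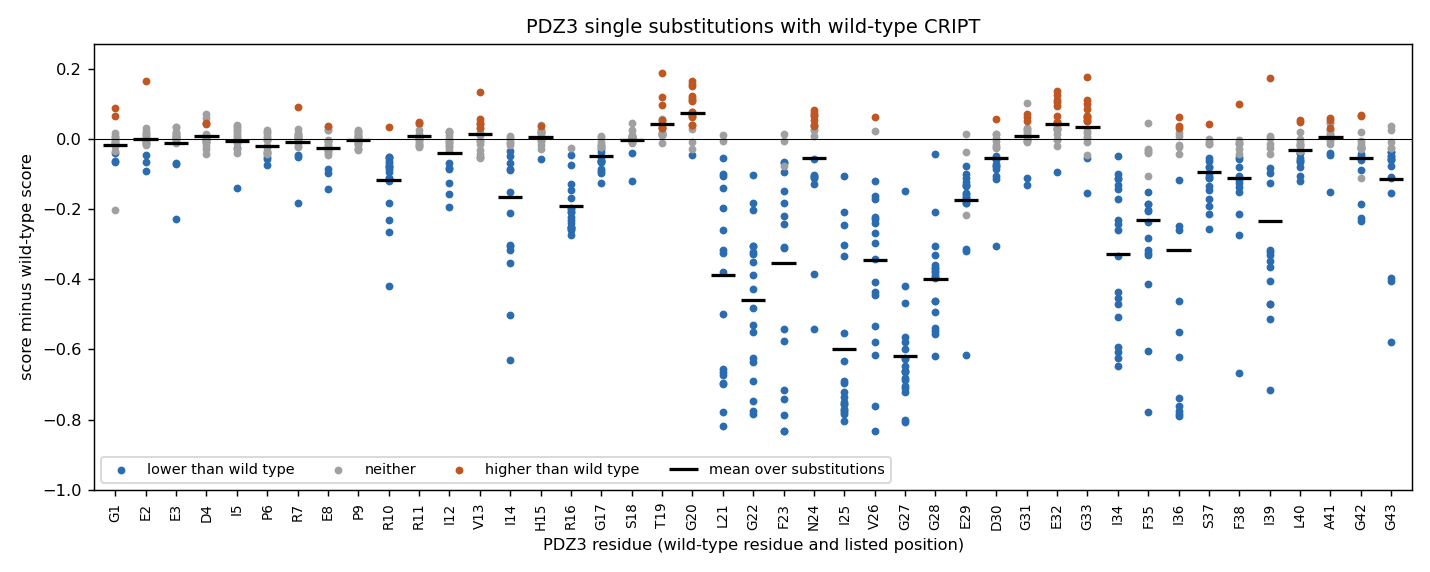
Effect of each PDZ3 single substitution (score minus wild-type score, no unit) against the residue it replaces, for residues G1 to G43. Points are substitutions coloured by their call at an adjusted p under 0.05 and black bars are the mean over substitutions, which lay below -0.3 at 9 residues, lowest at G27 (-0.620) and highest at G20 (0.0721).

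In all, the 5 residues with every substitution lower were G22, I25, G27, G28 and I34. The 5 lowest mean effects were at G27, I25, G22, G28 and L21, and the 5 highest at G20, T19, E32, G33 and V13, of which V13 was just below 0 (-0.00425) when read over N2 ligands in place of wild-type CRIPT. Of the 81 higher single substitutions, 47 were at residues 19, 20, 24, 32 and 33, the residues with the most higher calls. Each of these residues held 18 or 19 of the 870 single substitutions. The 10 lowest single substitutions were V26P, F23D, F23R, L21E, A45F, G27H, I25P, G27P, I36E and F23E, between -0.833 and -0.786. Of these, A45F is in the sparse stretch and carried an error of 0.227. The 10 highest were T19R, G33E, I39L, G20M, E2Q, G20L, G20K, E32M, V13D and E32P, between 0.125 and 0.187.

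By chemistry of the new residue, over residues 1 to 43, proline and acidic residues cost the most. Proline averaged -0.239 ± 0.00529 (n = 41) with 23 lower and 8 higher, and it was the lowest substitution at 11 residues. Aspartate and glutamate averaged -0.203 ± 0.00460 (n = 79), with 58.2% lower. Glycine averaged -0.151 ± 0.00538 (n = 32) and lysine and arginine -0.150 ± 0.00551 (n = 82). Aromatic residues (phenylalanine, tyrosine, tryptophan) averaged -0.114 ± 0.00459 (n = 125), polar residues (serine, threonine, asparagine, glutamine, cysteine, histidine) -0.112 ± 0.00406 (n = 251) and aliphatic residues (alanine, valine, isoleucine, leucine, methionine) -0.0862 ± 0.00426 (n = 199). These means average over residues of very different sensitivity, and the SD over substitutions was between 0.184 and 0.313 within each class, larger than any difference between class means.

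By chemistry of the replaced residue, aromatic and aliphatic wild-type residues had the lowest mean effects, -0.235 ± 0.00528 (n = 56) and -0.204 ± 0.00424 (n = 227 substitutions). Glycines followed at -0.161 ± 0.00435 (n = 189), and they were divided, with 99 substitutions lower and 32 higher. The charged residues averaged -0.0780 ± 0.00448 (basic, n = 76) and -0.0318 ± 0.00448 (acidic, n = 130), polar residues -0.0221 ± 0.00428 (n = 93) and the prolines -0.0106 ± 0.00513 (n = 38). These classes rest on few residues, and ± covers measurement error only, not the spread between residues. The aromatic class was F23, F35 and F38, with means of -0.355, -0.233 and -0.111, and the prolines were P6 and P9. Means of aliphatic residues ran from -0.600 at I25 to 0.0127 at V13. The class of the new residue mattered by segment. In strand beta3 all 12 acidic substitutions were lower, with a mean effect of -0.429, against 13 of 26 aliphatic ones with a mean effect of -0.0930. In strand beta2 acidic substitutions averaged -0.575 (6 of 6 lower) and proline -0.726 (3 of 3 lower), against -0.134 for aliphatic ones. In the GLGF motif basic and acidic substitutions averaged -0.452 and -0.483 (n = 8 each), glycine -0.459 (n = 2) and proline -0.519 (n = 4). Polar, aromatic and aliphatic substitutions there averaged -0.245, -0.175 and -0.167. In the N-terminal tail no class had a mean effect farther from 0 than the -0.0313 of glycine.

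**Figure D2:**
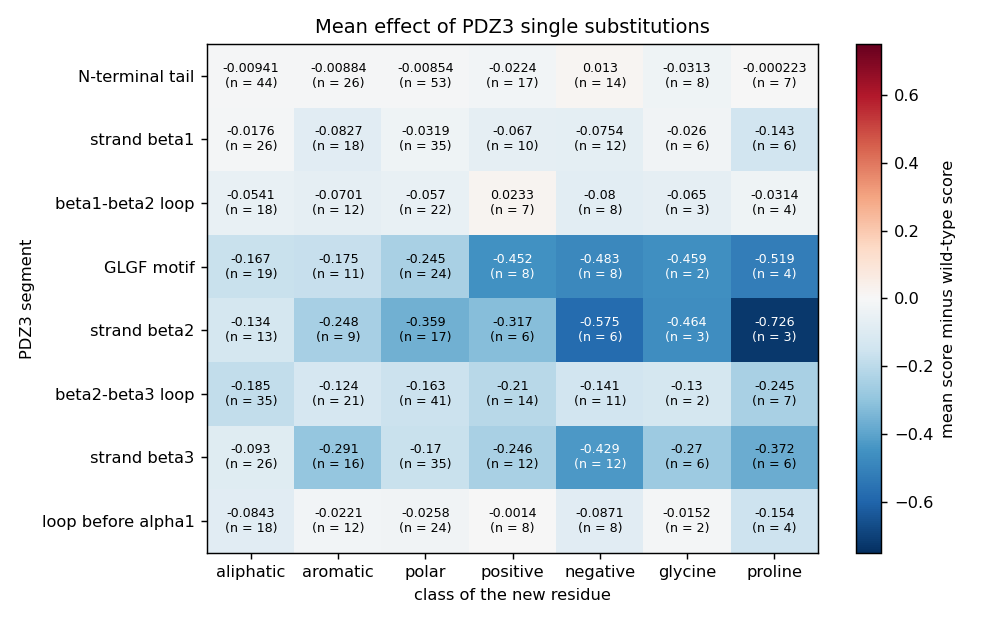
Mean effect of PDZ3 single substitutions (score minus wild-type score, colour scale and printed value) by segment, down the page, and by class of the new residue, across, with the number of substitutions in each cell. The lowest cells are proline (-0.726) and acidic residues (-0.575) in strand beta2.

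Proline was not uniformly harmful. E32P was higher than wild type, as were G20P at 0.0753 ± 0.0157, G33P at 0.0565 ± 0.0183, A41P at 0.0591 ± 0.0133 and R7P, H15P, T19P and S37P, which scored between 0.0335 and 0.0911. Elsewhere in strand beta3 proline was lower to very different extents, with F35P at -0.777 ± 0.0342, F38P at -0.668 ± 0.0315, I39P at -0.471 ± 0.0230, I36P at -0.249 ± 0.0152 and I34P at -0.112 ± 0.0197.

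Each PDZ3 substitution was also scored with up to 19 replacements of each CRIPT residue, which gives readings of the same substitution apart from its single score. For every CRIPT substitution a ligand background was set as the median score of its pairs with near-neutral PDZ3 substitutions, those within 0.02 of wild type as singles (238 substitutions, 133 to 228 pairs per ligand). A pair was then compared with its ligand background by the same kind of test, adjusted over all 240109 such pairs of the table. The backgrounds covered 151 ligands. The median levels of T6 and V8 substitutions, -0.733 and -0.732, lay close to the stop level, although T6S (-0.164), V8C (-0.108), V8I (-0.173), V8L (-0.244) and V8M (-0.479) were well above it. Comparisons across ligands below use the other 6 CRIPT residues, a choice made after the values were seen.

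By the median across ligands the losses carried over in direction without exception and the gains in part. All 348 lower single substitutions with at least 50 ligands had a median below the ligand background. Of 80 higher ones, 72 had a median above it and 40 by more than 0.05, yet 12 had no pair called above and 12 had over 50% of pairs called above. Over 736 substitutions the single effect and the median difference from the ligand background had Pearson's r = 0.985, given as a description, since these points share the library and the near-neutral level. The lowest single effects were compressed, with F23D at -0.832 as a single and -0.773 as the median over 107 ligands, and V26P at -0.833 and -0.666 over 80 ligands.

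The highest single scores were not the ones that best kept their size across ligands. T19R, at 0.187 as a single, had a median of 0.0472 above the ligand background and was called above in 11 of 114 ligands. G33E (0.175 as a single) had a median of 0.0594 and 11 of 114, and I39L (0.173) a median of 0.0387 and 10 of 114. E2Q scored 0.163 ± 0.0249 as a single but had a median of -0.0113 and 0 of 114 called above, and V13D, at 0.132 ± 0.0248, a median of 0.0101 and 0 of 113. G20M held its level, with a median of 0.176, all 114 ligands above 0 and 109 called above. E32P was called above in 114 of 114 ligands with a median of 0.129, and G20K in 93 of 114 with a median of 0.147. G20L, with fewer and noisier pairs, was above 0 in 88 of 89 ligands and called above in 30, and E32M was above 0 in 97 of 109 and called above in 3.

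**Figure D3:**
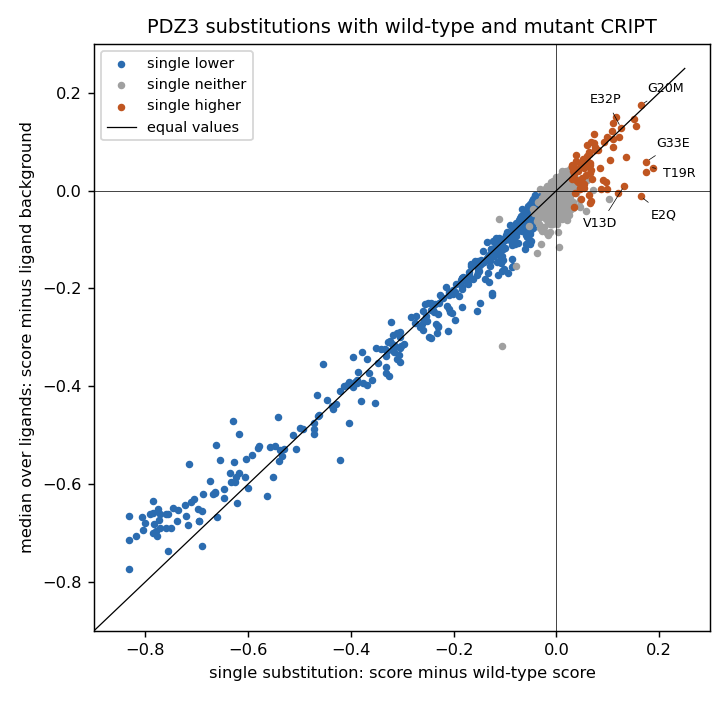
For each of 736 PDZ3 substitutions with at least 50 ligands, the median over CRIPT substitutions of score minus ligand background (vertical) against its effect with wild-type CRIPT (horizontal), both in score units, coloured by the call of the single. G20M (0.176) and E32P (0.129) lie near the line of equal values, while T19R, G33E, V13D and E2Q lie below it.

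In all, 2955 of 104259 pairs (2.83%) lay above their ligand background and 27632 (26.5%) below, against 2.43% and 21.6% over the whole table. Of the pairs above, 2089 (70.7%) had their PDZ3 change at residues 20, 24, 32 or 33, the residues with the largest shares above. These residues held 2435 to 2601 tested pairs each. Substitutions higher as a single were carried by 78.4% of the pairs above and by 11697 of the 104259 tested pairs. Of the pairs below, 97.6% carried a substitution that was lower as a single, as did 48357 of the 104259 tested pairs. The share of pairs below was 29.02% to 34.6% where K1, N2, Y3, K4, Q5 or S7 was replaced, but 3.70% at T6 and 7.81% at V8. The median error of a pair was 0.0977 at T6 and 0.0976 at V8, against 0.0420 to 0.0496 at the other CRIPT residues. The shares called thus compare pairs of unlike precision. Most of the calls below at T6 and V8 came from the few ligands with a higher level. T6S held 252 of the 420 pairs below at T6, out of 717 pairs tested, and at V8, of 896 in all, V8C held 267 of 732, V8I 241 of 711, V8L 209 of 693 and V8M 104 of 666. Pairs with a lower single had a median difference from the background of -0.104 over all T6 ligands and -0.117 over all V8 ligands. At the other CRIPT residues it was -0.212 to -0.199. The sets of scored pairs differed. There were 5020 such pairs at T6 and 5111 at V8, with median single effects of -0.165 and -0.166. The other CRIPT residues had 6270 to 6473 each, with median single effects of -0.202 to -0.185. The median levels of the other ligands ran from -0.304 at K4 to -0.0147 at N2, and Q5E, at 0.117, was the highest background.

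**Figure D4:**
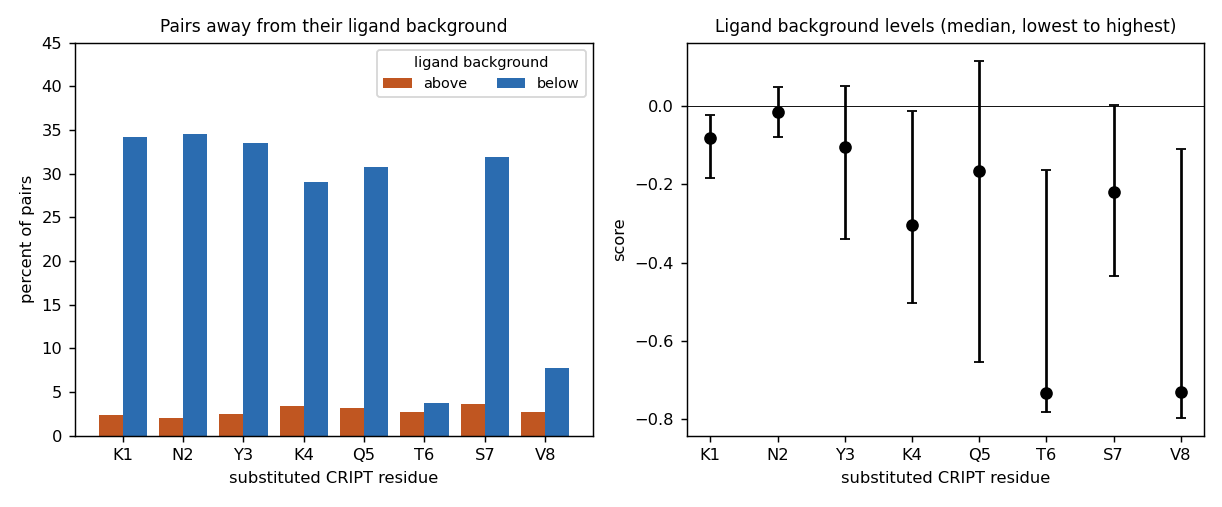
Left, percent of PDZ3-CRIPT pairs called above or below their ligand background, by substituted CRIPT residue. Right, ligand background levels as score, with points for the median and bars from the lowest to the highest substitution of that residue. The share below falls to 3.70% at T6 and 7.81% at V8, whose median levels (-0.733 and -0.732) lie near the stop level. Pairs at T6 and V8 also had larger median errors (0.0977 and 0.0976) than pairs at the other residues (0.0420 to 0.0496).

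The gains at G20 were seen with every CRIPT residue. Pairs above the background made up 55.1% at K4, 49.0% at Q5, 47.6% at S7, 44.1% at Y3 and 40.6% at K1, the 5 highest shares among 344 combinations of a PDZ3 and a CRIPT residue that had 50 or more tested pairs. Even at T6 the share was 21.8%. With the acidic ligand K4D, whose background was -0.482 ± 0.00700, G20M scored -0.195 ± 0.0498 and G20K -0.251 ± 0.0565. With K4E, whose background was -0.342 ± 0.00599, G20M scored -0.145 ± 0.0421 and G20K -0.130 ± 0.0328. Between these substitutions the differences were within their errors. G20R with Y3E reached 0.116 ± 0.0806 against a background of -0.339 ± 0.00584, but the single G20R was measured with an error of 0.101 and its level is loosely known.

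The 5 pairs of positions with the largest share below were G27 with N2 (331 of 331 pairs, 100%), G27 with K1 (99.4%), G27 with Y3 (97.8%), I25 with K1 (97.4%) and G22 with N2 (97.0%). These residues were also the ones with the lowest single effects.

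N24 and S7 formed the pair of positions, outside G20 with 6 of the CRIPT residues, with the largest share of pairs above the background. Of 337 pairs, 121 (35.9%) were above and 54 below, whereas N24 with the other CRIPT residues had 5.50% (T6) to 15.03% (Q5) above. N24I was above in 19 of 19 S7 ligands and N24T in 16 of 19. N24I with S7W scored -0.0103 ± 0.0277 against a background of -0.306 ± 0.00482, and with S7I -0.0424 ± 0.0292 against -0.355 ± 0.00666. N24R with the acidic S7D scored -0.0272 ± 0.0242 against -0.434 ± 0.00590, a gain of 0.407, the largest of N24R over its S7 ligands, where its median gain was 0.0821. Among the ligands S7W had the highest median over the N24 substitutions, 0.219, with 14 of 19 called above.

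N24P illustrated how the ligand changed the size of a loss. With wild-type CRIPT it scored -0.542 ± 0.0201. With S7T it scored -0.671 ± 0.0651 against a background of -0.0710 ± 0.00394, a difference of -0.6001. With S7W and S7F it scored -0.268 ± 0.0481 and -0.244 ± 0.0562 against backgrounds of -0.306 ± 0.00482 and -0.277 ± 0.00529. With S7I it scored -0.396 ± 0.0591 against a background of -0.355 ± 0.00666. None of these pairs differed from its background at an adjusted p under 0.05. Over S7 ligands as a whole N24P was below in 15 and above in 0, with a median of -0.391, so most S7 ligands did not show this.

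Acidic substitutions at N24 and S37 differed from their backgrounds in unlike ways with basic and with acidic replacements of Q5. N24D scored -0.112 ± 0.0280 with Q5R, above the background of -0.288 ± 0.00519, and -0.595 ± 0.0533 with Q5D, below the background of -0.366 ± 0.00645. N24E was below with Q5E and Q5D by -0.404 and -0.341, and differed in neither direction with Q5R and Q5K. S37D behaved alike, at -0.103 ± 0.0449 with Q5R, above by 0.185, and -0.595 ± 0.0789 with Q5D, below by -0.229. S37E scored -0.194 ± 0.0436 with Q5K, above the background of -0.326 ± 0.00627, and -0.175 ± 0.0431 with Q5E, below the background of 0.117 ± 0.00353. In N24 and S37 the acidic substitutions were thus above or at the background with a basic ligand residue and below it with an acidic residue there, except S37D with Q5E, whose error of 0.114 left it in neither direction.

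The size of this shift, the median difference from the background with a basic Q5 ligand minus that with an acidic ligand, was 0.346 at N24 and 0.339 at S37. These were the 2 highest of the 256 pairs of positions with values, whose median was 0.00322 and whose 5th to 95th percentiles were -0.111 to 0.119. The next 4 values were also with Q5, at I25 (0.224), L21 (0.217), F38 (0.179) and F23 (0.170), and over the 43 PDZ3 residues with a value for Q5 the shift was above 0 at 30, with a median of 0.0152. A positive shift with Q5 was thus seen at other residues too. At the other end of the range, values of the opposite sign were as large, down to -0.410 for I25 with Y3. For substitutions near the stop level, such as L21E (-0.819) and F23D (-0.833), the difference also depends on the background level itself. That level was 0.117 for Q5E and -0.366 for Q5D, against -0.326 for Q5K and -0.288 for Q5R. It was -0.335 for Y3D and -0.339 for Y3E, against -0.0938 for Y3K and -0.0234 for Y3R. The part of charge in these shifts was not tested. The pattern at N24 and S37 was chosen after the values were seen and was not tested. The opposite arrangement was unequal between the residues. At S37 the basic S37K and S37R lost more with Q5K and Q5R (-0.223 to -0.145) than with Q5E and Q5D (-0.0984 to -0.0485), whereas N24R differed from its background in neither direction with any of these 4 ligands and N24K was above with Q5D by 0.122.

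**Figure D5:**
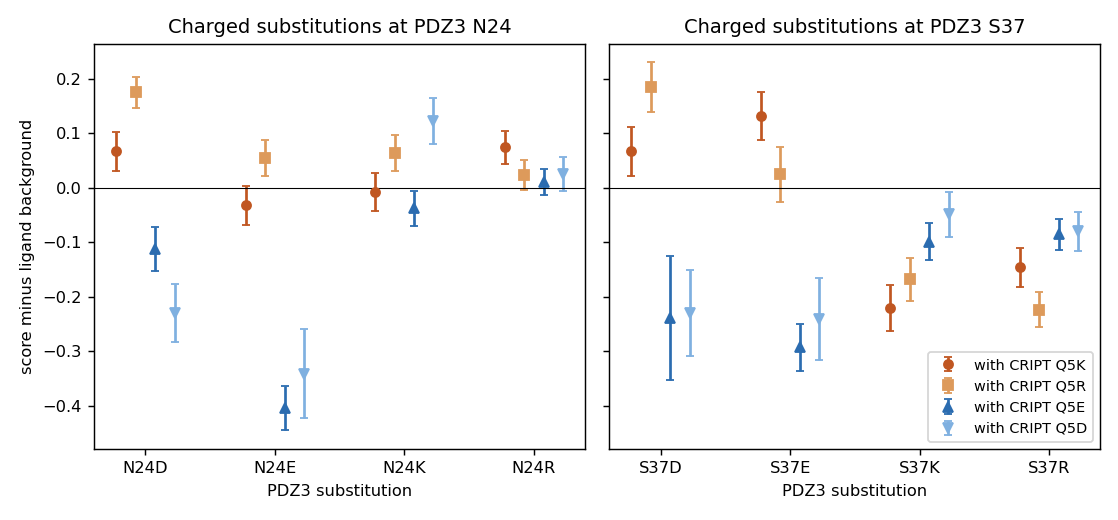
Score minus ligand background for charged substitutions of PDZ3 N24 (left) and S37 (right) with CRIPT Q5K, Q5R, Q5E and Q5D. Points are single pairs and bars the combined error of the pair and its background, which shows N24D, S37D and S37E above 0 with basic ligands and below 0 with acidic ones.

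Pairs were also compared with an isotonic curve of the summed single effects, fitted per listing, which asks for a departure beyond what both singles predict. Of 104260 pairs, 1016 lay above the curve and 379 below, where 0.819% of all 240110 pairs of the table lay above and 0.251% below. With each substitution's median deviation taken out first, 350 were above and 31 below. N24 with S7 had 81 pairs above and 6 below (38 and 1 after median removal). S37 with Q5 had 35 above and 0 below (20 and 0), although 78 of its 321 pairs were below their ligand background and 10 above. N24 with Q5 had 22 above and 0 below (7 and 0). G20 with K4, which led by the ligand background, had 10 above and 0 below (2 and 0), so few of its pairs were called off the curve. The curve comparison also carries the errors of both singles, so a pair that is not called may still depart from it. The pairs of G20K, G20M and G20R with K4D and K4E lay above the curve by 0.0369 to 0.155, and none was called.

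Within S37 with Q5, S37Q was above the curve in 11 of 19 ligands, S37Y in 5 and S37W in 4. S37T with Q5L scored 0.00914 ± 0.0841 against a background of -0.433 ± 0.00591, and S37Q with Q5L -0.173 ± 0.0244 against the same level. The acidic pairs described above were also off the curve. S37D with Q5R was above it by 0.415, N24E with Q5R by 0.446 and N24D with Q5R by 0.326, while their pairs with Q5E and Q5D were not called. N24P with S7W and with S7F was above it by 0.513 in both cases.

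The 10 pairs farthest above their ligand background with an error under 0.1 were I14T with V8P, L40T with V8Y, F38G with V8N, G27W with T6K, R7D with T6D, L40P with T6R, D30H with T6C, G20R with Y3E, G20M with T6Q and G27V with T6M. In 9 of them the ligand change was at T6 or V8, and in 1 of 10 the PDZ3 substitution was higher as a single. Of the 104259 tested pairs, 11350 were at T6, 11475 at V8 and 11697 carried a higher single. Pairs at T6 and V8 had median errors of 0.0977 and 0.0976, against 0.0420 to 0.0496 at the other CRIPT residues. Large differences from noise are thus more likely at T6 and V8. I14T with V8P scored -0.139 ± 0.0963 against a background of -0.759 ± 0.0126, although I14T as a single scored -0.000376 ± 0.0164. Each is 1 measurement. G27V was at -0.723 as a single and G27W at -0.421 ± 0.103, and G27V with T6M, at -0.312 ± 0.0668, stood above both its single and its background of -0.759 ± 0.00858.

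The 10 farthest below all carried a PDZ3 substitution that was lower as a single. They were F23D with Q5V, N2P, S7T, Y3F and N2V, I36H with N2Q, I25R with Q5E, G22I with Q5E, L21D with N2T and L21E with K1T. Their backgrounds lay between -0.0710 and 0.117, far above the stop codons. Of the 10, F23D with S7T was below the curve of summed effects and the other 9 were not called. The curve takes S7T at its listed single score of 0.218, while its background level was -0.0710, and the curve level for F23D was -0.615 with S7T and -0.776 to -0.757 with the other 4 ligands.

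Set beside PDZ3 residues 51 to 100, residues 1 to 50 had a lower mean single effect, -0.127 ± 0.00398 against -0.0821 ± 0.00387. Single substitutions were lower in 45.5% of cases against 37.6% and higher in 9.31% against 21.9%. The differences were 7.92 and -12.5 percentage points. The 2 stretches come from separate listings, so residue and listing cannot be told apart, and no test over samples could be made. With the wild-type value moved by the offset between listings the differences became 3.902 and -6.01 percentage points.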

How the data were processed

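The members, lists and comparisons were chosen with earlier results of these data known. Per the labels, yeast libraries were grown with and without methotrexate and amplicons were sequenced in 3 biological replicates per group. The submitters' processing notes name FastQC and cutadapt. The authors deposited a fitness score and its error per amino acid sequence (unit: score). Its log base, the kind of error, count filters and read depth are not given in the sources used here, and merged replicates leave the errors as the only measure of precision. The p-values rest on these errors and leave out differences between experiments.

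Differences from wild type, from the ligand background (at least 10 near-neutral pairs) and from an isotonic curve were divided by their combined errors, with two-sided normal p-values adjusted by Benjamini-Hochberg over the whole table (python 3.11.15, numpy 2.4.6, pandas 2.3.3, scipy 1.17.1, scikit-learn 1.9.0). All comparisons with wild type share its error. Means over substitutions are unweighted with propagated errors. For 16 substitutions not listed alone, the curve used a median over their pairs. The procedures were tested on simulated scores with noise of the size of the deposited errors, which cannot show whether those errors are too small. Named were the 10 lowest and highest called single substitutions, the 5 lowest and highest residues, the GLGF motif with N24 and S37, the 10 pairs farthest above and below their background (error under 0.1), the 5 pairs of positions with the largest shares and substitutions that illustrate a residue or chemistry class. The 2 wild-type control samples and the other 3 tables were not used.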

Additional observations from a re-analysis of the deposited data

How the results depend on the processing

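No paired analysis was possible because the table holds merged scores without values per replicate, and for the same reason no replicate could be left out. At an adjusted p under 0.01, 682 variants were higher than wild type, 1770 pairs were above their ligand background and 603 above the curve. Keeping only variants whose error was in the lower 50%, so that fewer were tested, gave 38538 variants lower than wild type and 13318 pairs below their ligand background. With the wild-type value shifted by the offset between listings, 137 single substitutions were higher, and the differences from residues 51 to 100 became 3.902 (lower) and -6.01 (higher) percentage points. The mean single effect of -0.127 was -0.0367 as a median, -0.0888 with inverse squared error weights, -0.0759 with the lower 50% of errors, -0.111 with the shifted wild type and -0.138 from N2 ligands in place of singles. Taking the listed CRIPT single as the ligand level gave 7341 pairs above it. A plain sum without a curve gave 5864 pairs above and 1136 below, and removal of each substitution's median 350 above and 31 below. The cause of these shifts was not tested. Counts of variants, singles and pairs under the other alternatives stayed within 1.5 times the reported ones, including pairs without T6 and V8 (2340 above, 26316 below), an alternative added after the data were seen. Among single results, all 119 values of the 20 named substitutions (other thresholds, errors and wild-type levels) and all 81 of the 20 named pairs (also another ligand level) kept direction and call under the alternatives run. Replacing the single score by ligand medians was not among these, and there E2Q was at -0.0113. The 20 named pairs were picked as extremes of the same data, so their kept calls are no independent check. Of these pairs the lower 50% of errors held only G20M with T6Q, so that alternative says little about them. Of 50 alternative values of the named residue means, 35 moved by more than their error, 14 did not and 1 changed sign: V13 averaged -0.00425 over N2 ligands. The errors, not a known depth, limit these calls.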

Other observations

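A few substitutions that passed in neither direction as singles were low across ligands. F35K scored -0.107 ± 0.0835 as a single, but its median over 82 ligands was -0.318 from the ligand background and 60 of these pairs were called below. F35L scored -0.0304 ± 0.0182 as a single, with a median of -0.108 over 114 ligands and 58 pairs called below. Both were picked after their values were seen.

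Among 4092 members with a stop codon, 4091 were lower than wild type. The exception, chosen after its value was seen, was the stop codon at H15 paired with CRIPT Y3P, which scored -0.0507 ± 0.0790, while the 2352 PDZ3 stop codons paired with a CRIPT substitution had a median of -0.828.

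Several CRIPT single scores in the listing for residues 1 to 50 lay away from the level of the same ligand with near-neutral PDZ3 substitutions. S7N was listed at -0.410 ± 0.00582, and its level over 195 near-neutral pairs was -0.260. S7T lay off in the other direction, listed at 0.218 ± 0.00895 with a level of -0.0710 over 205 pairs. V8E was listed at -1.22 ± 0.0174, with a level of -0.760 over 198 pairs. T6G was listed at -1.18 ± 0.0165, with a level of -0.771 over 179 pairs. The curve of summed effects uses the listed values unless the median of each substitution is removed.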
